A study of Homo sapiens with 18 samples.

Results

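The messenger RNAs of 9 genes that carry human cells through S phase and mitosis were followed across 6 drug conditions: CCNE1 and CCNE2 (cyclins E1 and E2), CCNA1 and CCNA2 (cyclins A1 and A2), CCNB1 and CCNB2 (cyclins B1 and B2), CCNF (cyclin F), CDK1 and CDK2. They were taken by symbol and make up 9 of the 23368 gene rows in the deposited tables. The cells were SJSA-1, a human osteosarcoma line in which the MDM2 and CDK4 genes are amplified, and each condition had 3 libraries, 18 in all. DMSO was the solvent control, and Nutlin libraries came from cells given 20 µM of this MDM2 antagonist, which frees p53 from its inhibitor, for 6 h. PD30 cells received 10 µM PD0332991 (palbociclib), an inhibitor of the cyclin D kinases CDK4 and CDK6, for 30 h. PD24 cells received the same dose for 24 h and, by the study's treatment scheme, spent the last 6 h without it. N+PD24 and N+PD30 had the same 2 PD0332991 schedules, with Nutlin present for the last 6 h. A single cell line was used, so every value belongs to that genetic background.

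Cyclins are the short-lived regulatory subunits of cyclin-dependent kinases, and most of them are made and destroyed once in each cell cycle. E cyclins activate CDK2 at the entry into S phase, A cyclins serve CDK2 in S phase and then CDK1, and B cyclins with CDK1 drive mitosis. Cyclin F stands apart: it binds no CDK partner and acts as the substrate receptor of a ubiquitin ligase. CDK4 and CDK6 phosphorylate the retinoblastoma protein RB, which then releases E2F transcription factors, and several of these 9 genes are known E2F targets. Active p53 induces CDKN1A, whose product p21 inhibits cyclin-dependent kinases. The DREAM complex represses many S-phase and mitotic genes through promoter elements that include the CHR. In bulk RNA from such a culture, fewer cycling cells and less RNA per cell cannot be told apart.

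By the GENCODE annotation of GRCh37, CCNE1 lies on chromosome 19 (30302898 to 30315219), CCNE2 on 8 (95891998 to 95908906), CCNA1 on 13 (37005657 to 37017007), CCNA2 on 4 (122737599 to 122745038) and CCNB1 on 5 (68462962 to 68474072). CCNB2 lies on chromosome 15 (59397325 to 59417244), CCNF on 16 (2479395 to 2508855), CDK1 on 10 (62538089 to 62554610) and CDK2 on 12 (56360565 to 56366573). CCNE1, CCNA1 and CDK1 overlap no other annotated gene. The other 6 overlap between 1 and 4 annotated genes, with the authors' counts assigned by strand, and CCNB2 alone shares a stretch with a noncoding gene of its own strand. RefSeq promoter windows (GRCh38.p14, 250 bases before to 50 bases after the start site) were matched for 7 of the 9 genes, with 2 windows for CDK1. Each window was searched on both strands for the CHR element TTTGAA, the CCAAT box CCAAT and E2F-type letters (TTCCCGC, also TTGGCGC, also TTCGCGC, and TTGCCGC), which do not overlap one another in these windows. Of all 35116 promoter windows, 15.2% held TTTGAA, 34.6% held CCAAT, 13.0% held E2F-type letters and 0.513% held all 3. Shown here, with each match in capitals, are 3 windows: that of CCNE1, with no match, and those of 2 genes with several. The CCNE1 window (chr19:29811741-29812040, plus strand) held none, the CCNB2 window (chr15:59104896-59105195, plus strand) held 1 CHR and 4 CCAAT matches, and the second CDK1 window (chr10:60778228-60778527, plus strand) held 3 CHR, 2 CCAAT and 2 E2F-type matches.
CCNE1: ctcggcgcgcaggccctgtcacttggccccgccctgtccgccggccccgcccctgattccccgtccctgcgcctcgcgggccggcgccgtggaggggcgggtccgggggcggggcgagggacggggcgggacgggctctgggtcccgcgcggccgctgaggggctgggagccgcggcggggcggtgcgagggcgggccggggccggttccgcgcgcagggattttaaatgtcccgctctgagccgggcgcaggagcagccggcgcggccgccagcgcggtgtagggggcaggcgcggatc
CCNB2: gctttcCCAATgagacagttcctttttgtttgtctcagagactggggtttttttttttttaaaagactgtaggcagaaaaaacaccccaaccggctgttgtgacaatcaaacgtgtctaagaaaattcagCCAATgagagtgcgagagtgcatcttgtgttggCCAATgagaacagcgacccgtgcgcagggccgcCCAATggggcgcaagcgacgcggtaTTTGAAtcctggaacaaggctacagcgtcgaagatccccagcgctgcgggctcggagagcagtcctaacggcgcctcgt
CDK1: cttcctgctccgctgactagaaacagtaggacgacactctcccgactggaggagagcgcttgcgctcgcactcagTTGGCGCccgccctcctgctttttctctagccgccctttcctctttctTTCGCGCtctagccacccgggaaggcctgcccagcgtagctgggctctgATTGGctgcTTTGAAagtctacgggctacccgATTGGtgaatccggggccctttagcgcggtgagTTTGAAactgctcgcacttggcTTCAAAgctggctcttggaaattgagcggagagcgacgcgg
Among other windows, CCNA1 held none, CCNA2 held 1 CCAAT match, and CCNB1 held 2 CCAAT matches and 1 of E2F type. The first CDK1 window held 1 CHR, 1 CCAAT and 2 E2F-type matches. A match of these letters is a description of the window only.

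Library totals ran from 12704845 to 40231041 reads assigned to genes (median 29608936), with the smallest in N+PD30 replicate 1. Levels are given as counts-per-million of these reads (CPM), so 1 read is worth 0.0249 to 0.0787 CPM, depending on the library. CDKN1A, the p53 target used as a check of Nutlin, stood at 143 to 219 CPM in DMSO and at 3859 to 4144 CPM in Nutlin. Of 9 osteoblast-lineage markers, 6 averaged over 1 CPM, while SP7, BGLAP and IBSP were at or near 0. The leukocyte markers PTPRC and CD3E were at or near 0, although LCP1 averaged 1538 CPM and CD14 7.47 CPM, and of the epithelial markers KRT8 and KRT18 alone averaged over 1 CPM. The summed level of the 9 genes ran from 1113 to 1189 CPM in DMSO, from 491 to 639 in Nutlin, from 43.4 to 54.2 in the PD24 and PD30 libraries and from 22.5 to 33.0 in the 6 libraries with both drugs.

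Compared per kilobase of merged exons, a scale on which genes can be set side by side, CCNB1 was the most abundant of the 9 in DMSO at 126.7 ± 4.2 CPM per kb (SD, n = 3), ahead of CCNA2 at 78.6 ± 0.84, CDK1 at 57.4 ± 3.7, CCNB2 at 39.2 ± 0.37 and CDK2 at 28.1 ± 1.5. Below them came CCNE2 at 17.8 ± 3.7, CCNF at 11.8 ± 0.49, CCNE1 at 8.53 ± 0.45 and CCNA1 at 0.65 ± 0.14 CPM per kb. Cyclin A1, best known from germ cells, was thus the scarcest, with 33 to 59 reads in each DMSO library. CDK1 moved above CCNA2, at 118.7 against 78.6 CPM per kb, when the length of each canonical transcript was used in place of merged exons. In PD30 CCNB1 remained first by merged exons, at 4.49 to 5.31 CPM per kb over its 3 libraries, and CDK2 was next at 3.60 ± 0.20, but by canonical length CDK2 led at 6.25 CPM per kb against 6.00 for CCNB1.

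**Figure D1:**
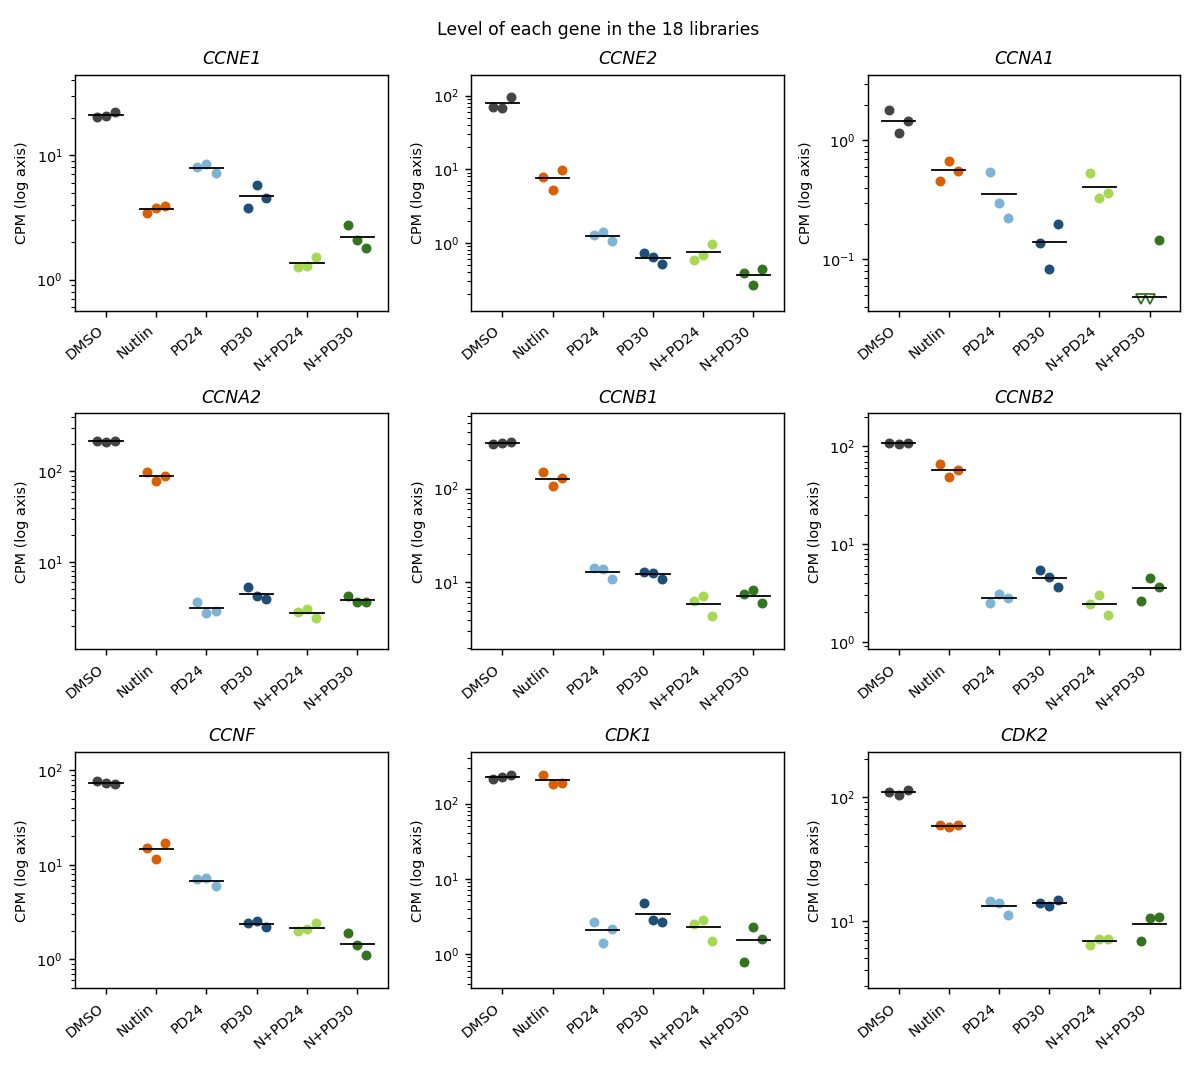
Level of each of the 9 genes in CPM (log axis, a scale of its own in each panel) in the 3 libraries of each condition, with points for libraries, lines for group means and open triangles near the foot of the panel for libraries at 0 CPM. DMSO libraries are highest in every panel except that of CDK1, where DMSO and Nutlin overlap, and all libraries with PD0332991 are below the DMSO libraries in every panel.

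Among the E cyclins, CCNE1 stood at 20.1, 20.6 and 22.2 CPM in the DMSO libraries and at 3.41, 3.76 and 3.91 CPM in Nutlin. With PD0332991 alone it was at 7.98, 8.52 and 7.18 CPM in PD24 and at 3.79, 5.73 and 4.51 CPM in PD30. With both drugs it was at 1.27, 1.30 and 1.52 CPM in N+PD24 and at 2.75, 2.08 and 1.79 CPM in N+PD30. DMSO was thus highest, PD24 next, the PD30 and Nutlin ranges overlapped, and N+PD24 was lowest with no overlap. CCNE2 stood in DMSO at 70.9, 67.1 and 96.7 CPM, and at 7.77, 5.16 and 9.80 CPM in Nutlin. In PD24 its level was 1.26, 1.39 and 1.04 CPM, and in PD30 it was 0.723, 0.640 and 0.511 CPM. In N+PD24 CCNE2 was at 0.574, 0.677 and 0.975 CPM and in N+PD30 at 0.394, 0.269 and 0.436 CPM, the latter from only 5 to 9 reads a library. Nutlin was the second highest condition for CCNE2, ahead of PD24 with no overlap, whereas for CCNE1 all 3 PD24 libraries were above all 3 Nutlin libraries.

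Of the A cyclins, CCNA2, the somatic form, was at 215, 214 and 219 CPM in DMSO and at 98.1, 79.1 and 88.3 CPM in Nutlin. It fell into single digits in every library with PD0332991: 3.63, 2.74 and 2.91 CPM in PD24 and 5.34, 4.25 and 3.95 CPM in PD30. The range was 2.46 to 3.03 CPM in N+PD24 and 3.63 to 4.25 CPM in N+PD30. All 3 PD24 libraries were below all 3 PD30 libraries, while PD24 and N+PD24 overlapped. CCNA1 stood at 1.79, 1.14 and 1.45 CPM in DMSO, at 0.459, 0.666 and 0.553 CPM in Nutlin, at 0.543, 0.295 and 0.224 CPM in PD24 and at 0.138, 0.0834 and 0.199 CPM in PD30. It was at 0.533, 0.325 and 0.361 CPM in N+PD24, and in N+PD30 2 libraries held no read and the third 3 reads, or 0.145 CPM. A library with 0 reads of N+PD30 could have held up to 0.236 CPM in replicate 1 and 0.101 CPM in replicate 2 (3 reads, counting error only), so these values do not separate N+PD30 from PD30.

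The mitotic cyclin CCNB1 was at 297, 310.4 and 317 CPM in DMSO and at 149, 106 and 128 CPM in Nutlin. It stood at 14.2, 14.0 and 10.8 CPM in PD24 and at 12.9, 12.7 and 10.9 CPM in PD30. Both combinations were lower still, at 6.35, 7.12 and 4.33 CPM in N+PD24 and at 7.48, 8.23 and 6.00 CPM in N+PD30. No library with both drugs reached the lowest library with PD0332991 alone, and the 2 schedules overlapped within each pair. CCNB2 stood at 109, 107 and 108 CPM in DMSO and at 65.5, 48.3 and 57.9 CPM in Nutlin. Its PD24 libraries, at 2.51, 3.08 and 2.78 CPM, were all below its PD30 libraries, at 5.37, 4.59 and 3.63 CPM. With Nutlin added it ran from 1.88 to 3.03 CPM in N+PD24 and from 2.60 to 4.54 CPM in N+PD30, so that for CCNB2, unlike CCNB1, the libraries with both drugs overlapped those with PD0332991 alone. CCNF was at 77.8, 73.7 and 71.7 CPM in DMSO and at 15.1, 11.6 and 17.0 CPM in Nutlin. PD24 libraries held 7.03, 7.34 and 6.04 CPM of CCNF and PD30 libraries 2.41, 2.53 and 2.19 CPM, with no overlap. The range was 2.01 to 2.42 CPM in N+PD24 and 1.11 to 1.89 CPM in N+PD30.

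CDK1, the mitotic kinase, was at 211, 222 and 239 CPM in DMSO and at 239.8, 179.5 and 188 CPM in Nutlin, and these ranges overlapped. It stood at 2.68, 1.39 and 2.14 CPM in PD24 and at 4.79, 2.84 and 2.64 CPM in PD30. The level was 2.54, 2.84 and 1.48 CPM in N+PD24 and 0.787, 2.28 and 1.60 CPM in N+PD30, the lowest of these from 10 reads. The 4 conditions with PD0332991 each overlapped the next of the 4 in the order of levels, but every N+PD30 library was below every PD30 library. CDK2 was at 110.0, 103 and 114 CPM in DMSO and at 59.6, 56.9 and 59.4 CPM in Nutlin. It kept the largest share of its DMSO mean of any of the 9 genes apart from CCNE1 in PD30, 12.8%, with 14.4, 14.0 and 11.1 CPM in PD24 and 13.9, 13.3 and 14.8 CPM in PD30. Its level was 6.43, 7.20 and 7.08 CPM in N+PD24 and 6.93, 10.5 and 10.7 CPM in N+PD30. PD24 and PD30 overlapped, and every library with both drugs was below every library with PD0332991 alone.

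The first comparison asked what 6 h of Nutlin did to these messenger RNAs. Nutlin lowered 8 of the 9 genes, with the E cyclins and CCNF most affected and CDK1 not passing the test. In edgeR's quasi-likelihood test, 6 were called lower, meaning an adjusted p under 0.05 and a change over 1 on the log2 scale, against 8.42% of all 15766 genes tested, and 8 passed on adjusted p alone, against 28.0%. CCNE2 fell by 3.25 ± 0.22 on the log2 scale (SE, edgeR adjusted p = 3.54e-06), CCNE1 by 2.38 ± 0.13 (edgeR adjusted p = 1.34e-06) and CCNF by 2.23 ± 0.13 (edgeR adjusted p = 1.81e-06). CCNA1 fell by 1.26 ± 0.28 (edgeR adjusted p = 0.00346), CCNA2 by 1.16 ± 0.096 (edgeR adjusted p = 9.97e-06) and CCNB1 by 1.15 ± 0.12 (edgeR adjusted p = 3.64e-05). CCNB2, which fell by 0.79 ± 0.11 (edgeR adjusted p = 0.000243), and CDK2, which fell by 0.77 ± 0.085 (edgeR adjusted p = 5.42e-05), passed on p but not on size. For CDK1 the difference was -0.02 ± 0.12, with a 95% interval from -0.29 to 0.24 and an edgeR adjusted p of 0.894. That interval holds no fall of the size seen in any other of the 9 genes, though the sign of so small a value changed when single libraries were left out. The median over the 9 genes was -1.16, beside 0.03 over all genes, and the 3 libraries of each condition did not overlap for 8 of 9 genes, beside 39.9% of all genes lower without overlap.

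The ratio of reads between 2 genes in the same library was also followed, with no test, as a quantity that is free of library scaling and is read here only across conditions. CCNB1 to CDK1 was 1.33 to 1.41 in DMSO and 0.589 to 0.684 in Nutlin, and CCNA2 to CDK1 was 0.913 to 1.02 in DMSO and 0.409 to 0.470 in Nutlin. CDK1 to CDK2 was 1.92 to 2.16 in DMSO and 3.16 to 4.03 in Nutlin. None of these ranges overlapped between the 2 conditions. In the conditions with PD0332991, CCNB1 to CDK1 was above the DMSO range, at 2.50 to 10.1 over the 12 libraries, while CDK1 to CDK2 was far below it, at 0.0997 to 0.395. The extremes of 10.1 and 0.0997 rest on few CDK1 reads, 33 in PD24 replicate 2, and N+PD30 replicate 1 held only 10. CCNE2 to CCNE1 was 3.26 to 4.35 in DMSO and 1.37 to 2.51 in Nutlin, then 0.112 to 0.191 in PD24 and PD30 together, 0.129 to 0.243 in N+PD30 and 0.452 to 0.643 in N+PD24. CCNE1 to CDK2 was 0.183 to 0.200 in DMSO, 0.0572 to 0.0662 in Nutlin, 0.553 to 0.647 in PD24 and 0.273 to 0.431 in PD30.

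**Figure D2:**
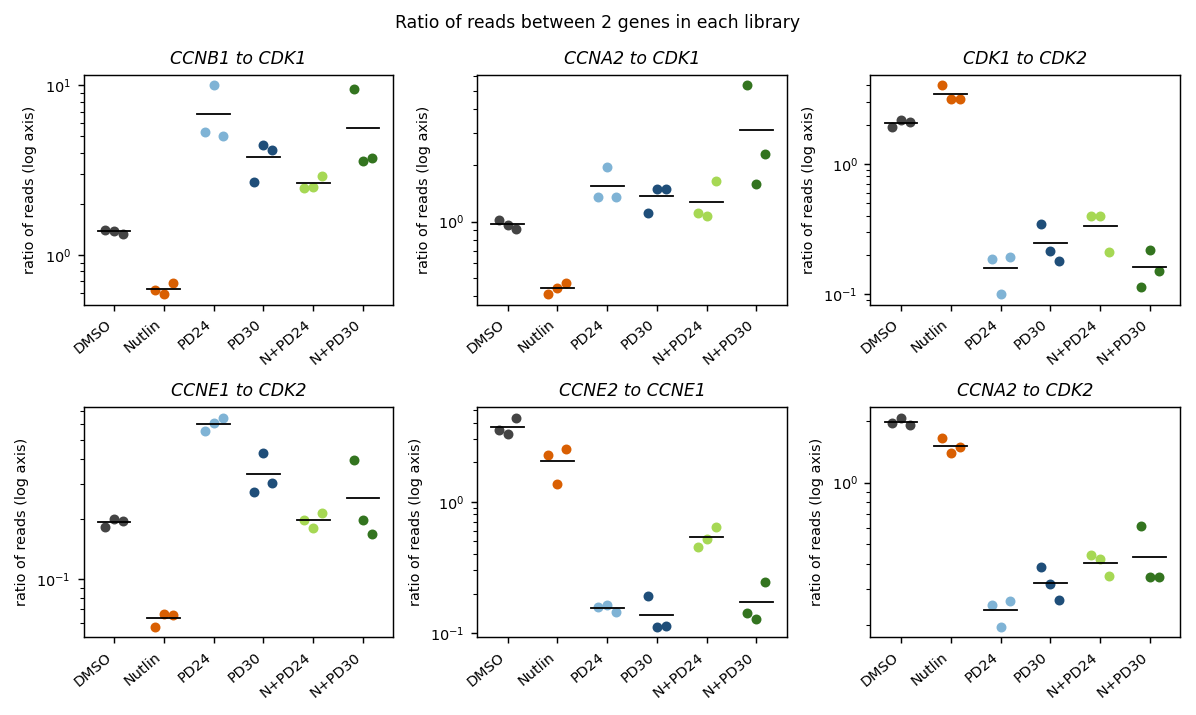
Ratio of reads between 2 genes within each library (log axis), for 6 pairs, with points for libraries and lines for group means. CCNB1 to CDK1 and CCNE1 to CDK2 are lowest in Nutlin, with means of 0.631 and 0.0631, while CDK1 to CDK2 is highest there, with a mean of 3.45.

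All 9 genes had lower levels under continuous PD0332991. In PD30 against DMSO all 9 were called lower by edgeR, against 9.48% of the 15125 genes tested, and no PD30 library overlapped a DMSO library for any of them, beside 29.3% of all genes lower without overlap. CCNA1 passed the filter on low counts only through the DMSO libraries, here and in PD24 against DMSO. Its calls in both are therefore no support for a difference, though the counts of 9 include it. The median over the 9 was -4.68 on the log2 scale, beside 0.00 over all genes. CCNE2 fell by 6.99 ± 0.21 (edgeR adjusted p = 9.56e-09). The next deepest were CDK1, which fell by 6.07 ± 0.20 (edgeR adjusted p = 1.71e-08), and CCNA2, which fell by 5.60 ± 0.12 (edgeR adjusted p = 2.79e-09). CCNF fell by 4.98 ± 0.11 (edgeR adjusted p = 3.15e-09), CCNB1 by 4.68 ± 0.099 (edgeR adjusted p = 2.54e-09), CCNB2 by 4.59 ± 0.14 (edgeR adjusted p = 1.05e-08) and CCNA1 fell by 3.37 ± 0.35 (edgeR adjusted p = 5.00e-05). CDK2 fell by 2.98 ± 0.088 (edgeR adjusted p = 9.46e-09) and CCNE1 by 2.17 ± 0.16 (edgeR adjusted p = 4.92e-06). In terms of means, CCNE2 stood at 0.798% of its DMSO level, CDK1 at 1.53% and CCNE1 at 22.3%. The 2 E cyclins, which serve the same kinase, were thus the most and the least lowered of the 9.

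In PD24 against DMSO, 6 h after the drug was taken away, all 9 genes were still called lower by edgeR, against 7.96% of the 15094 genes tested, and again without overlap for any of the 9, beside 28.2% of all genes lower without overlap. The most lowered was CDK1, which fell by 6.72 ± 0.19 on the log2 scale (edgeR adjusted p = 2.03e-08). CCNA2 fell by 6.10 ± 0.13 (edgeR adjusted p = 5.15e-09), and CCNE2 fell by 5.99 ± 0.21 (edgeR adjusted p = 6.45e-08). CCNB2 fell by 5.25 ± 0.13 (edgeR adjusted p = 9.58e-09), CCNB1 by 4.55 ± 0.14 (edgeR adjusted p = 3.20e-08) and CCNF by 3.43 ± 0.13 (edgeR adjusted p = 1.09e-07). CDK2 was lower by 3.03 ± 0.13 (edgeR adjusted p = 3.45e-07), CCNA1 by 2.05 ± 0.35 (edgeR adjusted p = 0.00209) and CCNE1 by 1.39 ± 0.13 (edgeR adjusted p = 6.23e-05). The comparisons of Nutlin, PD24 and PD30 share the same 3 DMSO libraries.

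**Figure D3:**
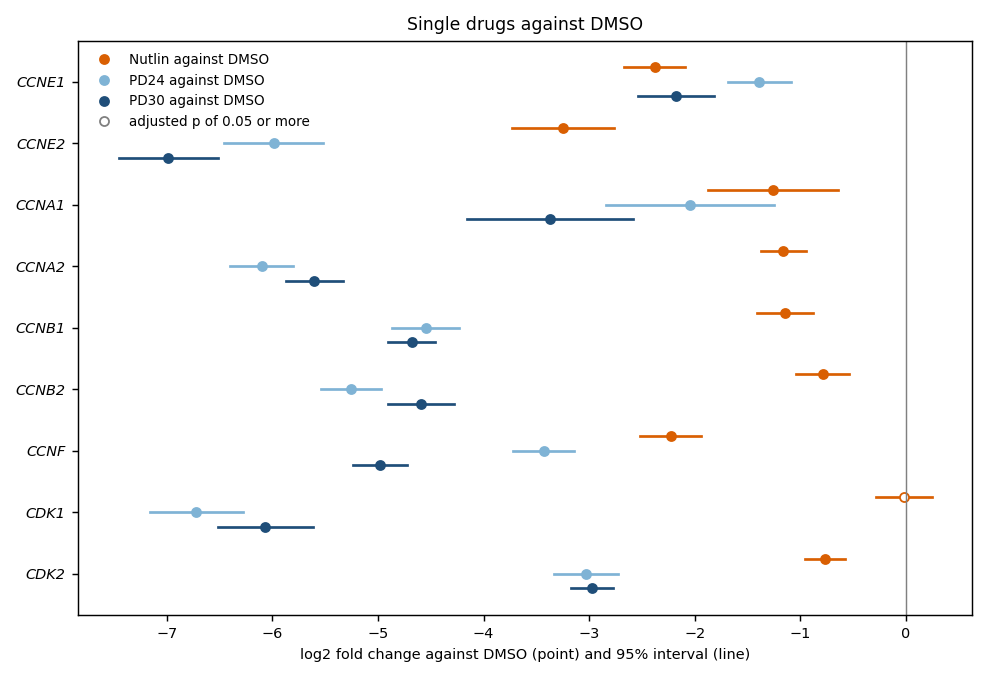
Difference of each of the 9 genes from DMSO on the log2 scale in Nutlin, PD24 and PD30 (points) with 95% intervals (lines), with an open point for an adjusted p of 0.05 or more. The Nutlin points lie between -3.25 and -0.02 and the PD30 points between -6.99 and -2.17, and CCNE1 is the only gene whose Nutlin point is left of its PD30 point.

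The effect of taking PD0332991 away was read directly from PD24 against PD30. By adjusted p alone, both E cyclins and CCNF passed as higher after removal, and CCNB2 as lower. Of the 8 genes tested (CCNA1 had too few reads), edgeR called 2 higher, against 4.07% of 15171 genes, and none lower, against 3.42%. On adjusted p alone 3 passed as higher, against 12.9%, and 1 as lower, against 12.2%. The 1 of 8 that passed as lower is near the share over all genes. CCNF rose by 1.55 ± 0.17 on the log2 scale (edgeR adjusted p = 0.000611), CCNE2 by 1.00 ± 0.27 (edgeR adjusted p = 0.0234) and CCNE1 by 0.78 ± 0.19 (edgeR adjusted p = 0.0167), while CCNB2 fell by 0.66 ± 0.20 (edgeR adjusted p = 0.0408). CCNA2 gave -0.51 ± 0.19 (edgeR adjusted p = 0.086, or 0.0272 with the replicate number as a block and 0.0112 with all 15 libraries in the fit) and CDK1 gave -0.67 ± 0.30 (edgeR adjusted p = 0.125, or 0.0237 with the block). The interval was -0.23 to 0.49 for CCNB1 and -0.38 to 0.28 for CDK2. Even where they rose, the levels stayed far below DMSO: CCNF reached 9.14% of its DMSO mean, CCNE2 1.57% and CCNE1 37.6%. CCNE2 sat at the size threshold, and its adjusted p rose to between 0.0594 and 0.0816 without PD24 replicate 1 or 2 or PD30 replicate 2 or 3. That of CCNE1 rose to 0.0648 and 0.0575 without PD30 replicate 1 and 3, and that of CCNB2 to between 0.0751 and 0.154 without PD24 replicate 1 or 3 or PD30 replicate 1 or 2.

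Adding Nutlin for the last 6 h to cells kept in PD0332991 lowered CCNE1 and CCNB1 further, and the other genes did not pass. In N+PD30 against PD30, 8 genes could be tested by edgeR and 1 was called lower, CCNE1, against 0.497% of the 15077 genes tested. CCNE1 fell by 1.02 ± 0.25 on the log2 scale (edgeR adjusted p = 0.0299), and CCNB1 fell by 0.65 ± 0.16 (edgeR adjusted p = 0.0347), so that 2 passed as lower on adjusted p alone, against 5.64%. Differences of the other 6 ran from -0.95 to -0.14, and none passed, although CDK2, at -0.47 ± 0.16, passed with the replicate number as a block (edgeR adjusted p = 0.0848, or 0.0371 with the block). With all 15 libraries deposited as counts in the fit, CCNF, CDK1 and CDK2 passed too (edgeR adjusted p = 0.0337, 0.0403 and 0.0271). Without PD30 replicate 1, 2 or 3 or N+PD30 replicate 2 the adjusted p of CCNE1 lay between 0.0551 and 0.118, and without N+PD30 replicate 3 its difference was -0.87. That of CCNB1 lay between 0.0587 and 0.122 without PD30 replicate 1, 2 or 3 or N+PD30 replicate 1 or 2. For CCNA1 the counts alone gave PD30 a level 2.94 times that of N+PD30, with an interval from 0.820 to 16.0 for counting error.

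After removal of PD0332991, cells given Nutlin held less CCNE1, CCNF, CCNB1 and CDK2 than cells without it. In N+PD24 against PD24, tested with limma on log2 values because the N+PD24 columns are scaled, 2 of 8 genes tested were called lower, against 7.17% of the 14897 genes tested, and 4 passed on adjusted p alone, against 20.0%. CCNE1 fell by 2.36 ± 0.18 (limma adjusted p = 2.38e-05), CCNF by 1.48 ± 0.18 (limma adjusted p = 0.000209), CCNB1 by 0.99 ± 0.22 (limma adjusted p = 0.00615) and CDK2 by 0.77 ± 0.16 (limma adjusted p = 0.00431). CCNE2 was at -0.58 ± 0.28 (limma adjusted p = 0.132), and CCNA2, CCNB2 and CDK1 lay between -0.05 and 0.29, with libraries that overlapped. Scaling by total values in place of TMM moved the median of all genes by -0.15 in this comparison, so that the fall of CCNB1 came to 1.14 and passed the size threshold.

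Compared with Nutlin alone, both combinations were lower in nearly all of the 9. In N+PD30 against Nutlin edgeR called 8 of 9 lower, against 13.9% of the 15721 genes tested, and the ninth, CCNE1, fell by 0.80 ± 0.23 (edgeR adjusted p = 0.014, or 0.0609 without N+PD30 replicate 2). CDK1 fell by 6.95 ± 0.28 (edgeR adjusted p = 2.50e-08), CCNA2 fell by 4.57 ± 0.16 (edgeR adjusted p = 1.77e-08), and CCNE2 fell by 4.44 ± 0.33 (edgeR adjusted p = 2.59e-06). CCNB1, CCNB2, CCNF and CDK2 fell by between 2.67 and 4.17 on the log2 scale. For CCNA1, called by edgeR (adjusted p = 0.0025), the 49 Nutlin reads stood against 3 in N+PD30, a ratio of levels of 11.8 with a counting interval from 3.79 to 59.0. CCNA1 and CCNE2 passed the filter on low counts here only with the Nutlin libraries, where they were high, so their calls are no support for a difference. The fitted difference of CCNA1 moved from -3.46 to -6.88 without N+PD30 replicate 3 and -2.64 without N+PD30 replicate 2. In the N+PD24 libraries set against Nutlin, 8 of 9 were called lower by limma, against 7.59% of the 15262 genes tested. The range went from CCNE1, which fell by 1.35 ± 0.19 (limma adjusted p = 0.000631), to CDK1, which fell by 6.41 ± 0.24 (limma adjusted p = 1.57e-07). CCNA1 was the exception, at -0.38 ± 0.34 (limma adjusted p = 0.42), with overlapping libraries.

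Removal of PD0332991 under Nutlin was tested in N+PD24 against N+PD30. Here 1 of 8 genes tested was called higher by limma, against 7.42% of the 14945 genes tested, and none lower, against 5.34%. That gene, CCNE2, differed by 1.05 ± 0.35 on the log2 scale (limma adjusted p = 0.0473), but it passed the filter of 0.5 CPM only through the 3 N+PD24 libraries, where it was high, so this call is no support for a difference. Its adjusted p lay between 0.0549 and 0.149 without N+PD30 replicate 1, 2 or 3, and without any 1 of the N+PD24 libraries it had too few values over 0.5 CPM to be tested. CCNF gave 0.69 ± 0.27 (limma adjusted p = 0.0728, or 0.0279 without N+PD30 replicate 1), CDK1 gave 0.73 ± 0.40 (limma adjusted p = 0.187) and CCNE1 gave -0.55 ± 0.25 (limma adjusted p = 0.128). With all 18 libraries in the fit CCNE1, CCNA2 and CCNF passed (limma adjusted p = 0.0185, 0.0418 and 0.00614). The N+PD24 libraries of CCNE1 were all below those of N+PD30, the opposite order to PD24 and PD30. For CCNA1 the 35 reads of N+PD24 against 3 of N+PD30 gave a ratio of levels of 8.27, with a counting interval from 2.61 to 42.0. That interval leaves out the spread between libraries, and CCNA1 was too low to be tested here. The difference between the 2 removal effects was tested as an interaction, and CCNE1 was the one gene of 8 called, at -1.40 ± 0.30 (limma adjusted p = 0.00991), against 4.78% of the 15300 genes tested that were called lower. The other 7 lay between -0.89 for CCNF (limma adjusted p = 0.0621) and 1.37 for CDK1 (limma adjusted p = 0.109).

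**Figure D4:**
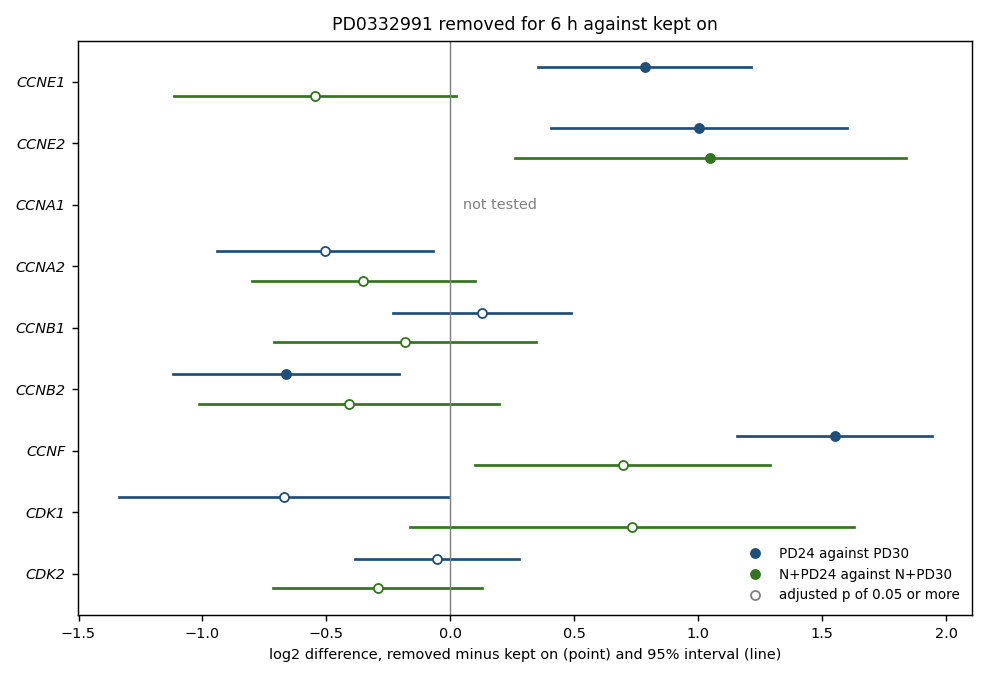
Difference between cells with PD0332991 removed for 6 h and cells kept in it, on the log2 scale, for the 8 genes tested (CCNA1 was not) without Nutlin (PD24 against PD30) and with it (N+PD24 against N+PD30), with 95% intervals (lines) and open points for an adjusted p of 0.05 or more. CCNE1 lies at 0.78 without Nutlin and at -0.55 with it, where it did not pass (limma adjusted p = 0.128). CCNE2 lies at 1.00 and 1.05. The value of 1.05 is no support for a difference, since CCNE2 passed the filter there only through the N+PD24 libraries.

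Whether the 2 drugs added up on the log2 scale was tested by the interaction of Nutlin with each schedule, positive where the combination was higher than the sum of the single effects. With PD30, edgeR called 4 of 9 genes positive, against 5.28% of the 16113 genes tested, and none negative, against 4.94%. These were CCNE2 at 2.57 ± 0.51 (edgeR adjusted p = 0.00358), CCNF at 1.64 ± 0.25 (edgeR adjusted p = 0.000812), CCNE1 at 1.40 ± 0.27 (edgeR adjusted p = 0.00287) and CCNA2 at 1.07 ± 0.17 (edgeR adjusted p = 0.00108). Their N+PD30 libraries held 5 to 9 reads of CCNE2, 23 to 42 of CCNF, 35 to 62 of CCNE1 and 54 to 108 of CCNA2. The part of such low counts in these interactions was not tested. CCNB1, CCNB2 and CDK2 lay between 0.35 and 0.65, CCNA1 at -0.08 ± 0.55 and CDK1 at -0.83 ± 0.34 (edgeR adjusted p = 0.105), and none of these passed. With PD24, limma called 2 of 9 positive, against 0.416% of the 15642 genes tested: CCNE2 at 2.68 ± 0.34 (limma adjusted p = 0.00181) and CCNA2 at 1.16 ± 0.19 (limma adjusted p = 0.0144). The other 7 lay between -0.003 and 1.58, with the last from CCNA1 (limma adjusted p = 0.187). CCNE1, at 0.01 ± 0.19, had an interval from -0.40 to 0.42. The CCNA2 interaction with PD24 had an adjusted p of 0.0583 without DMSO replicate 2 and 0.0518 without Nutlin replicate 2, and that with PD30 fell to between 0.98 and 0.99 without Nutlin replicate 2, PD30 replicate 3 or N+PD30 replicate 1.

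The neighbours of these 9 genes in the pathway were followed through 7 lists. Among them were the CDC25 phosphatases that activate CDK1 and CDK2 and the kinases WEE1 and PKMYT1 that inhibit them. All 5 of these genes were called lower in PD30 against DMSO, against 9.48% of all genes tested (median -4.36 on the log2 scale). In Nutlin 4 of 5 passed as lower on adjusted p alone, against 28.0% (median -0.92). CDC25C, a phosphatase that acts on CDK1 at mitosis, went from a mean of 29.1 CPM in DMSO to 20.3 in Nutlin and 0.660 in PD30, a fall of 5.47 ± 0.15 in the latter (edgeR adjusted p = 5.27e-09). PKMYT1 went from 18.2 to 14.4 and 0.246 CPM, and fell by 6.19 ± 0.33 in PD30 (edgeR adjusted p = 5.24e-07). Its PD30 libraries held 0.199 to 0.334 CPM, so PKMYT1 passed the filter on low counts there only with the DMSO libraries, where it was high. In Nutlin its difference was -0.22 (edgeR adjusted p = 0.523). Among 12 transcription factors of cell cycle genes, 9 passed as lower in PD30, against 25.4% of all genes (median -3.04). In Nutlin 9 passed as lower, against 28.0% (median -0.61). E2F8, a repressor of the E2F family, had the largest fall, from 30.8 CPM in DMSO to 3.49 in Nutlin and 0.0564 in PD30, a level of few reads. With at most 0.114 CPM in PD30, E2F8 too passed the filter in PD30 against DMSO only with the DMSO libraries. E2F1 went from 90.9 to 41.5 and 3.46 CPM, MYBL2, the subunit that turns on mitotic genes with MuvB, from 184 to 137 and 5.94 CPM, and FOXM1, an activator of mitotic genes, from 265 to 214 and 60.4 CPM. FOXM1 in Nutlin did not pass, at -0.18 ± 0.084 (edgeR adjusted p = 0.0895).

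In the list of ubiquitin ligase parts that turn cyclins over, 8 of 10 passed as lower in PD30 (median -0.82) and 7 as lower and 2 as higher in Nutlin (median -0.39). UBE2C, the conjugating enzyme of the anaphase-promoting complex, went from 120 CPM in DMSO to 85.8 in Nutlin and 2.96 in PD30, and FBXO5, an inhibitor of that complex, from 59.3 to 11.5 and 6.24 CPM. Of the 5 CDK-activating kinase and CKS genes, 3 passed as lower and 1 as higher in PD30 (median -0.35), and 3 as lower in Nutlin (median -0.29). CKS2, a small subunit that binds CDKs, went from 104 to 47.3 and 11.6 CPM. Of 7 CDK inhibitors and pocket proteins, 5 passed as lower in PD30 (median -0.71), led by RBL1, the pocket protein p107, from 49.7 to 7.30 CPM, and in Nutlin 3 passed as lower and CDKN1A as higher (median -0.04). The D cyclins with CDK4 and CDK6 went in both directions: in PD30 2 of 5 passed as lower and 3 as higher (median 0.29), with CCND2 up from 26.9 to 133.8 CPM, a rise of 2.30 ± 0.12 (edgeR adjusted p = 5.02e-07). In Nutlin 1 of the 5 passed as lower (median -0.18). Cyclins and CDKs outside the cell cycle core gave 1 lower and 2 higher of 13 in PD30 (median 0.03), and 9 lower and 2 higher in Nutlin (median -0.33). Medians over all genes were 0.00 in PD30 and 0.03 in Nutlin, 25.4% and 28.0% of all genes passed as lower, and 22.9% and 26.6% as higher.

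**Figure D5:**
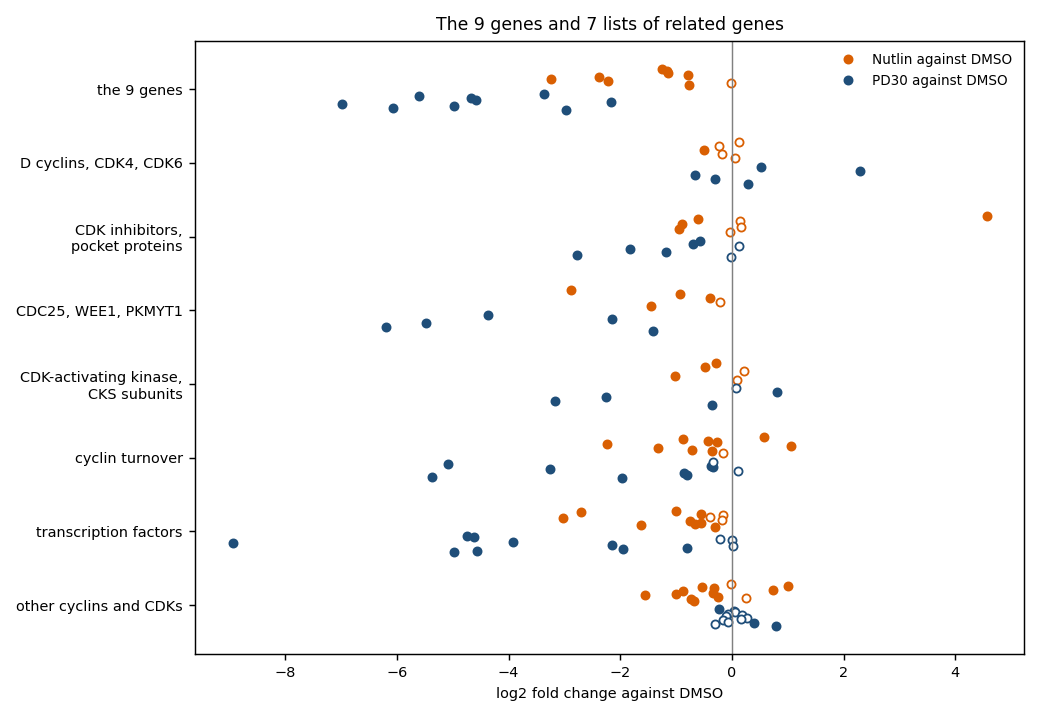
Difference from DMSO on the log2 scale in Nutlin and PD30, with 1 point for each gene, for the 9 genes and 7 lists of related genes, and open points for an adjusted p of 0.05 or more. In PD30 the 9 genes lie between -6.99 and -2.17, while the D cyclin list reaches from -0.67 to 2.30.

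As a last description, the genes with the pattern most like each of the 9 were found over all 18 libraries among 13559 genes, by Pearson's r of log2(CPM + 1), a measure of likeness with no test since the libraries fall into separate groups by treatment. CCNE2 was most like E2F8 and FAM111B (r = 0.994 for both), and CCNE1 was most like PDXP and DCLRE1B (r = 0.982 for both). CCNA2 was most like MKI67 and ESCO2 (r = 0.996 for both), CCNB1 like LMNB1 and CDC20 (r = 0.998 and 0.995), and CCNB2 like GTSE1 and TACC3 (r = 0.996 and 0.995). CCNF was most like UHRF1 and C15orf23 (r = 0.992 and 0.990), CDK1 like STMN1 and FANCI (r = 0.998 for both), and CDK2 like WDHD1 and ECT2 (r = 0.994 and 0.993). STMN1 had means of 537 CPM in DMSO and 490 CPM in Nutlin, where CDK1 had 224 and 202 CPM, and a mean of 54.6 CPM in PD30. DCLRE1B had means of 7.91 CPM in PD24, 5.13 in Nutlin and 4.34 in PD30, where CCNE1 had 7.89, 3.69 and 4.68 CPM, so their order of Nutlin and PD30 differed.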

How the data were processed

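RNA from SJSA-1 cells was sequenced as single reads from 18 libraries, 3 in each of 6 conditions. The authors aligned reads with TopHat and Bowtie 2 to the human genome build hg19 and counted reads over exons by strand with HTSeq 0.6.0. For 5 conditions the deposited values are raw counts per gene. For N+PD24 the deposited signal is a count divided by a size factor, and 100% of these values came out as whole reads (tolerance 0.05 read); the count test on the recovered reads was an alternative. Columns of the authors' own comparisons, which hold group means, fold changes and p-values, were not used.

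CPM was computed from each library's total; N+PD24 columns were rescaled by their own total. Comparisons among conditions deposited as counts used edgeR 4.0.16 (quasi-likelihood test, TMM scaling, its filter on low counts), and those with N+PD24 used limma 3.58.1 (trend) on log2(scaled value + 1), for genes over 0.5 CPM in 3 libraries or more. Fold changes on that scale understate the change of low genes. P-values were adjusted over all genes tested by Benjamini and Hochberg. A gene was called at an adjusted p under 0.05 and a log2 change over 1. DMSO and Nutlin columns stood in 2 deposited tables with identical values and were used once. Scripts were tested on simulated counts. Of the 23368 rows 28 carry date-like names. Counting intervals cover counting error only. Alternatives were DESeq2 1.42.0, other scalings, filters and pseudocounts, all libraries in the fit, a replicate block and leaving out each library. Replicate numbers come from the titles. Same-numbered libraries deviated together (r over 0.1 in all 3 pairs) in 4 of the 9 pairs of conditions compared, PD24 and PD30, PD24 and N+PD24, N+PD30 and PD30, N+PD24 and Nutlin. The blocked value is therefore given beside a result there where it moved the adjusted p across 0.05. The study calls its libraries biological triplicates, while the labels do not say whether they were separate cultures, so p-values measure the spread between these libraries. No replicate pair agreed within sampling noise (chi-square per degree of freedom 12.9 to 51.3).

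The 9 genes and 7 lists (D cyclins and partners; CDK inhibitors and pocket proteins; phosphatases and kinases of CDK1 and CDK2; CDK-activating kinase and CKS subunits; cyclin turnover; transcription factors; other cyclins and CDKs) were chosen with earlier results of these data known. Named from the lists are the largest called fall and rise of each in PD30 against DMSO, and CDKN1A, E2F1, FOXM1, MYBL2, CDC25C and FBXO5; other genes outside the 9 are named for likeness of pattern. One promoter window and one marker gene are not reported here.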

Additional observations from a re-analysis of the deposited data

Results flagged for a closer look

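In 7 cases the effect of one drug on 1 of the 9 genes differed with the other drug by a test of the difference itself. With continuous PD0332991 (PD30) the interaction with Nutlin was 1.40 on the log2 scale for CCNE1, 2.57 for CCNE2, 1.07 for CCNA2 and 1.64 for CCNF (edgeR adjusted p = 0.00287, 0.00358, 0.00108 and 0.000812). These positive values mean that Nutlin and PD0332991 together lowered the gene by less than the sum of their single effects. Levels in N+PD30 were 1.79 to 2.75 CPM for CCNE1, 0.269 to 0.436 for CCNE2, 3.63 to 4.25 for CCNA2 and 1.11 to 1.89 for CCNF. The part of low counts there was not tested. With PD0332991 removed before Nutlin (PD24) it was 2.68 for CCNE2 and 1.16 for CCNA2 (limma adjusted p = 0.00181 and 0.0144). Levels in N+PD24 were 0.574 to 0.975 CPM for CCNE2 and 2.46 to 3.03 CPM for CCNA2, and the part of such low counts in the interaction was not tested.

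The effect of removing PD0332991 differed with Nutlin for CCNE1, by -1.40 (limma adjusted p = 0.00991). Without Nutlin CCNE1 was higher after removal by 0.78 (edgeR adjusted p = 0.0167, or 0.0648 and 0.0575 without PD30 replicate 1 and 3). With Nutlin its difference was -0.55, which did not pass (limma adjusted p = 0.128, or 0.0185 with all 18 libraries in the fit). CDKN1A was at 4018 to 5130 CPM in N+PD24 and at 2081 to 2686 CPM in N+PD30, and its part in the difference was not tested.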

How the results depend on the processing

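Of 1074 values of single genes under alternatives, 1031 kept their direction and whether the gene was called by adjusted p and size together. Adjusted p alone moved to the other side of 0.05 in 40 of the 1071 values with a p, 24 of them with the call unchanged. The 9 that changed sign, each when a single library was left out, were small in the full fit: CDK1 in Nutlin against DMSO (-0.175 to 0.0498 on the log2 scale over all libraries left out), CDK2 in PD24 against PD30 (-0.117 to 0.0715), CCNB1 in N+PD24 against N+PD30 (-0.323 to 0.0593) and, in N+PD24 against PD24, CCNA2 (-0.0833 to 0.113) and CCNB2 (-0.208 to 0.142).

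Calling on adjusted p alone, with no size threshold, gave 8614 genes in place of 3277 in Nutlin against DMSO, 7307 in place of 2305 in PD30 against DMSO, 5781 in place of 1898 in PD24 against DMSO, 3816 in place of 1137 in PD24 against PD30 (4 of the 9 genes in place of 2), 7711 in place of 3510 in N+PD30 against Nutlin, and 2183 in place of 555 in N+PD30 against PD30 (2 of the 9 in place of 1). It gave 5346 in place of 1858 in N+PD24 against Nutlin, 4737 in place of 1907 in N+PD24 against N+PD30, 5416 in place of 2261 in N+PD24 against PD24 (4 of the 9 in place of 2), 3193 in place of 1647 for the interaction with PD30 and 2149 in place of 1249 for the difference in removal.

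In PD24 against PD30, 1 of the 9 in place of 2 was called with scaling by total counts, RLE size factors, no filter or all 15 libraries in the fit, since CCNE2 fell under the size threshold. In N+PD24 against N+PD30 the count was 0 in place of 1 with a pseudocount of 4, scaling by total values or the replicate block, and 2 with all 18 libraries. For the difference in removal, all 18 libraries gave 2 in place of 1. With no filter, N+PD24 against PD24 gave 3677 genes and the interaction with PD24 gave 67 in place of 101, and with the replicate block the latter gave 179. Scaling by total values gave 1065 lower and 919 higher in N+PD24 against N+PD30, in place of 798 and 1109, and 1448 lower and 977 higher in N+PD24 against PD24, in place of 1068 and 1193. Scaling by totals moved the median of all genes by -0.13 in Nutlin against DMSO.

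With single libraries left out, the number of the 9 called ran from 1 to 2 in PD24 against PD30, from 0 to 1 in N+PD30 against PD30 (318 to 794 over all genes) and from 1 to 2 for the interaction with PD24 (34 to 92) and the difference in removal (768 to 1433), and was 0 throughout in N+PD24 against N+PD30. With the replicate block, adjusted p crossed 0.05 for CCNB1 in the interaction with PD30 (0.0645 to 0.0437), CCNE2 in N+PD24 against N+PD30 (0.0473 to 0.0604) and CCNF in the difference in removal (0.0621 to 0.0352), besides the 3 values given above with the block, and for no other of the 9 genes. The count test (edgeR) on recovered whole reads called 1985 genes in N+PD24 against Nutlin, 2064 against N+PD30 and 2534 against PD24, 100 for the interaction with PD24 and 1242 for the difference in removal, with as many of the 9 genes as limma called (8, 1, 2, 2 and 1). The cause of these shifts was not tested. In N+PD30 replicate 1, the shallowest library, 1 read was worth 0.0787 CPM, which limits CCNE2 and CCNA1 there. Lengths of canonical transcripts, chosen as an alternative after seeing the data, moved levels in DMSO from 126.7 to 151.9 CPM per kb for CCNB1, 57.4 to 118.7 for CDK1, 39.2 to 72.5 for CCNB2, 28.1 to 48.7 for CDK2 and 17.8 to 29.3 for CCNE2.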
